A study of Danio rerio with 12 samples.

Results

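A sponge against the microRNA miR-29 was carried by a pair of zebrafish lines, and this account sets the brains of one line against those of the other. The first line carries actb1::miR-29sponge, with the promoter of the beta-actin gene actb1, which is active in most cell types. The second carries kif5a::miR-29sponge, with the promoter of the kinesin gene kif5a, a gene used mainly by neurons. All animals were male and 6 months old, and brain was the labelled tissue. The 4 actb1 libraries and the 4 kif5a libraries, 8 of the 12 in the series, were taken by their strain label and entered the comparison, and the 4 wild-type libraries stayed outside it and serve only to show where a level lies. Both lines carry a sponge, so the comparison shows how they differ and not what a sponge does. The labels name no insertion site, founder or wild-type strain, and give neither the hour of sampling nor whether each library came from a separate animal, so every p-value here reflects library-to-library spread alone, some of which could be technical. Transcripts of the sponge itself were not analysed here.

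MiR-29 is a small RNA that binds sites in messenger RNAs and lowers their stability and translation. A sponge is a transcript with many such sites that draws the microRNA away from its targets. Targets reported in mammals include collagens and other matrix genes, enzymes of DNA methylation and their reversal, and genes of apoptosis. The circadian clock, which also enters these results, is a loop in which CLOCK and BMAL1 activate the period, cryptochrome and Rev-erb genes, whose proteins then repress CLOCK and BMAL1. Light adds to this loop in zebrafish by inducing per2 and genes of DNA repair.

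The libraries held 25025902 to 33573243 counts, and totals did not separate the lines (exact two-sided permutation test, p = 0.914, where 4 against 4 cannot go below 0.0286). Of the counts in the actb1 libraries, 2.24 to 14% lay on the mitochondrial genome, against 9.37 to 11.7% in the kif5a libraries (p = 0.8286, same exact permutation test). Actb1 sponge 3 had the 2.24%. Along the first principal component, which held 32% of the variance, the actb1 libraries lay between -74.2 and -19.2 and the kif5a libraries between 31.5 and 37.5. Actb1 sponge 3 lay at -74.2 on it, and actb1 sponge 4 lay at -71.4 on the second component, away from every other library. Brain markers were abundant in both lines: the neuron list summed to 9500 to 13766 CPM (read counts scaled to library size) in actb1 libraries and 12792 to 13613 CPM in kif5a libraries.

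At an adjusted p under 0.05 in edgeR's quasi-likelihood test, 194 of 19645 genes differed between the lines, which is 0.988% of those tested. The actb1 line was higher for 102 of them (0.519%) and lower for 92 (0.468%). The difference was more than 2-fold for 77 of the higher and 73 of the lower genes. Over all tested genes the log2 difference, actb1 line minus kif5a line, had a median near 0 (-0.003), with quartiles of -0.19 and 0.20. For 2039 genes (10.4%) the 4 actb1 libraries did not overlap the 4 kif5a libraries, 919 of them (4.68%) higher in the actb1 line and 1120 (5.7%) lower. Of the called genes, 111 have a gene name, 57 have only a clone or locus name, and 26 have only an identifier.

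**Figure D1:**
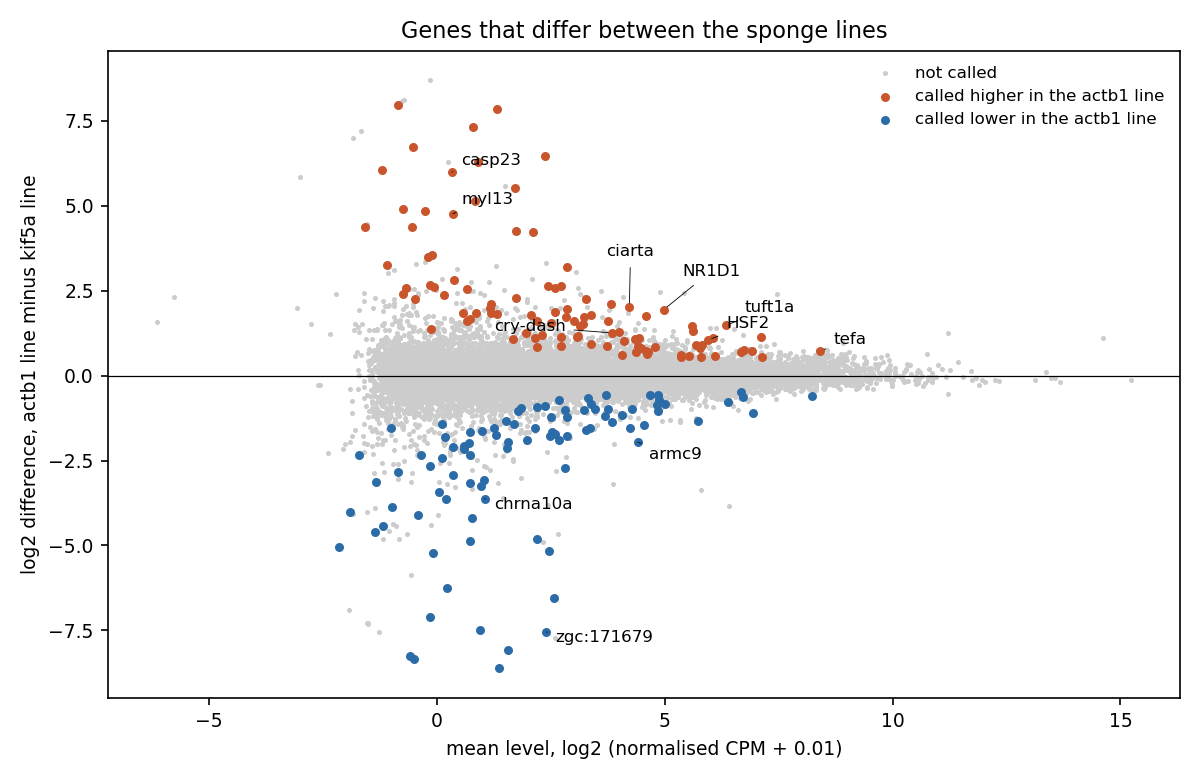
Each point is 1 of 19645 genes, with its mean level over the 8 libraries, as log2 of CPM plus 0.01, on the horizontal axis and the log2 difference, actb1 line minus kif5a line, on the vertical axis. The called genes, 102 higher and 92 lower, include abundant genes with small differences such as tefa, and genes of low level whose difference exceeds 5 on the log2 scale.

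The endogenous genes after which the promoters are named were not called between the lines. Actb1, a cytoplasmic actin, averaged 1162 ± 207 CPM in actb1 libraries and 1214 ± 126 CPM in kif5a libraries (SD, n = 4 each), a log2 difference of -0.06 ± 0.15 (SE; edgeR adjusted p = 0.877). KIF5A, a neuronal kinesin heavy chain, averaged 540 ± 48.6 CPM in actb1 libraries and 480 ± 21.7 CPM in kif5a libraries, a log2 difference of 0.17 ± 0.10 (edgeR adjusted p = 0.484). Its paralogue kif5ab differed by -0.01 ± 0.11 and actb2 by 0.13 ± 0.14 on the log2 scale, neither called. The miR-29 precursor genes MIR29A and MIR29B1 reached at most 2 and 1 counts in any of the 12 libraries, so no level of the microRNA can be read from these counts.

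Taken as 1 list, genes of the circadian clock had a larger share of calls than any other list outside the clock. The actb1 line was higher in 9 and lower in 2 of the 50 clock genes tested, so 22% were called, against 0.988% of all tested genes. The list also holds cry5 and cry-dash, of the photolyase family, and both are among the 9. Without overlap between the lines were 22 of the 50, 13 higher and 9 lower. Over all tested genes 10.4% did not overlap, 4.68% higher and 5.7% lower. Of the 9 higher genes, 6 encode repressors of the loop. Not every gene of the repressing families was higher. Cry3a, a cryptochrome, was called lower, and its relative cry3b differed by -0.91 ± 0.18 (edgeR adjusted p = 0.0568). Cry4 differed by -0.35 ± 0.17 and was not called. Other cryptochromes had positive differences without a call. CRY2 differed by 0.54 ± 0.11 (edgeR adjusted p = 0.0664). The copies of CRY1 differed by 0.52 ± 0.13 (ENSDARG00000011583) and 0.25 ± 0.09 (ENSDARG00000045768). Neither CRY2 nor the CRY1 copies overlapped between the lines. The period and cryptochrome list held 9 positive and 3 negative differences. The activators all had negative differences, without passing the test. The hour of sampling was not given, and its part in these differences was not tested. The lists were chosen with earlier results of these data known, so the count is a description.

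Ciarta, a repressor of CLOCK and BMAL1, was the clearest of them. It stood at 27.9, 29.7, 27.7 and 34.6 CPM in the actb1 libraries, against 5.98, 8.21, 7.11 and 8.31 CPM in the kif5a libraries. Every actb1 library exceeded every kif5a library by more than 3-fold, and the log2 difference was 2.02 ± 0.14 (edgeR adjusted p = 0.000377). Wild-type libraries, normalised with all 12 libraries and not part of the test, held 39.0 to 45.9 CPM.

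NR1D1, also called Rev-erb alpha, is a nuclear receptor that represses BMAL1. It stood at 47.4, 48.9, 35 and 69.1 CPM in actb1 libraries, against 11, 12.4, 13.6 and 15.1 CPM in kif5a libraries, a log2 difference of 1.94 ± 0.20 (edgeR adjusted p = 0.00249). The groups did not overlap, and wild type held 55.4 to 84.2 CPM. The other Rev-erb genes were not called. NR1D2 averaged 420 CPM in actb1 libraries and 366 CPM in kif5a libraries (0.20 ± 0.13, edgeR adjusted p = 0.507). Nr1d2a differed by 0.36 ± 0.18, nr1d4a by -0.04 ± 0.22 and nr1d4b by -0.09 ± 0.30. Of 11 clock nuclear receptors 1 was called higher and 1 lower, and the median was -0.09. Cry5, which encodes the 6-4 photolyase of zebrafish, stood at 11.5, 15.3, 17.9 and 12.5 CPM in actb1 libraries, against 3.64, 4.59, 4.62 and 4.58 CPM in kif5a libraries. Its log2 difference was 1.72 ± 0.17 (edgeR adjusted p = 0.00205). Cry-dash, a relative of the photolyases, stood at 19.0, 20.5, 20 and 21.9 CPM in actb1 libraries, against 7.90, 8.07, 8.77 and 9.28 CPM in kif5a libraries, and differed by 1.26 ± 0.11 (edgeR adjusted p = 0.000936). Neither gene overlapped between the lines.

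PER2 and 2 copies of PER1, genes of the period family, were higher in the actb1 line as well. The family did not move as one. PER3, the other period gene tested, averaged 124 CPM in actb1 libraries and 123 CPM in kif5a libraries (log2 difference 0.02 ± 0.16, edgeR adjusted p = 0.972). PER2, induced by light in zebrafish, stood at 112, 135, 133 and 125 CPM in actb1 libraries, against 78.2, 81.7, 76.0 and 76.4 CPM in kif5a libraries (log2 difference 0.70 ± 0.09, edgeR adjusted p = 0.0064). PER1 stands for more than 1 identifier. Its copy ENSDARG00000056885 stood at 24.8, 19.3, 16.5 and 20.3 CPM in actb1 libraries, against 4.23, 5.85, 7.03 and 9.69 CPM in kif5a libraries (1.59 ± 0.24, edgeR adjusted p = 0.0168). The more abundant copy ENSDARG00000012499 stood at 154, 166, 141 and 143 CPM in actb1 libraries, against 88.7, 80.2, 81.2 and 112 CPM in kif5a libraries (0.74 ± 0.13, edgeR adjusted p = 0.0278). Neither copy overlapped between the lines. The sources do not say how reads shared by close paralogues were counted, so a split between copies is uncertain.

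Of 21 clock outputs and regulators 3 were called higher and 0 lower. Their differences were positive in 14 and negative in 7, down to -0.94, with a median of 0.07. Among clock outputs, tefa, a transcription factor of the PAR bZIP family, was the most abundant called gene. It stood at 424, 433, 423 and 420 CPM in actb1 libraries, against 239, 261, 281 and 245 CPM in kif5a libraries (0.73 ± 0.09, edgeR adjusted p = 0.00574). BHLHE41, a repressor also named DEC2, stood at 163, 186, 151 and 168 CPM in actb1 libraries, against 109, 117, 122 and 107 CPM in kif5a libraries (0.55 ± 0.09, edgeR adjusted p = 0.0287). The difference for tefa exceeded the spread within either line many times over.

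The 2 lower genes were cry3a, a cryptochrome, and rorcb, a ROR nuclear receptor of the family that activates BMAL1. Cry3a stood at 245, 258, 226 and 226 CPM in actb1 libraries, against 363, 388, 360 and 330 CPM in kif5a libraries (-0.59 ± 0.09, edgeR adjusted p = 0.0202). Rorcb stood at 9.97, 10.4, 7.67 and 8.32 CPM in actb1 libraries, against 14.5, 17.6, 23.2 and 16.3 CPM in kif5a libraries (-0.98 ± 0.17, edgeR adjusted p = 0.0334).

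**Figure D2:**
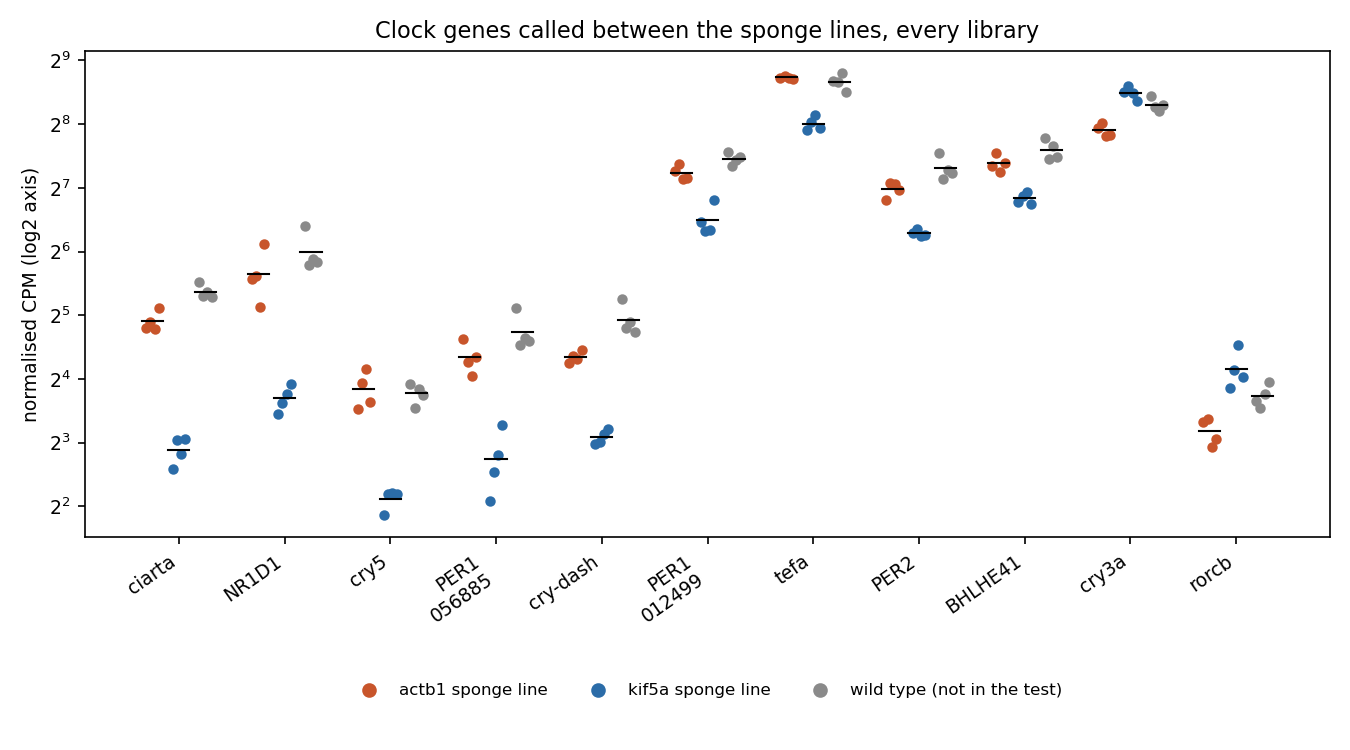
Normalised CPM on a log2 axis for the 11 clock genes called between the lines, with 4 actb1 libraries left, 4 kif5a libraries in the middle and 4 wild-type libraries right for each gene; a black line marks the mean. No actb1 library overlaps a kif5a library in any of these genes, and the actb1 mean lies nearer the wild-type mean in 9 of the 11.

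The activators showed no call in edgeR, and 5 of the 6 (83.3%) had an unadjusted p under 0.05. Over all tested genes 14% had, 1428 higher and 1325 lower, which is the background for such counts in every list. All 6 had a negative difference, with a median of -0.56, between -0.78 and -0.43. The copies of BMAL1 differed by -0.71 ± 0.14 (ENSDARG00000035732) and by -0.51 ± 0.10 (ENSDARG00000006791), both with an edgeR adjusted p of 0.057. The copies of CLOCK differed by -0.78 ± 0.22 (ENSDARG00000011703) and -0.49 ± 0.21 (ENSDARG00000003631), bmal2 by -0.62 ± 0.23 and npas2 by -0.43 ± 0.26. DESeq2 called 3 of the 6 lower, limma-voom and limma-trend 0, and edgeR fitted to all 12 libraries 2. Summed over the 6 genes, the actb1 libraries held 74.6 to 102 CPM and the kif5a libraries 126 to 132 CPM, and the lowest sums were those of actb1 sponge 3 and 4.

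In levels of the 11 called clock genes, the actb1 mean lay nearer the wild-type mean in 9 and the kif5a mean in 2. Over all 194 called genes the actb1 mean lay nearer in 74 and the kif5a mean in 120. The wild-type libraries took no part in the test, and these counts are a description.

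Ciarta, NR1D1, cry5, cry-dash, PER2 and tefa were called in each of the 8 fits that left out 1 library. The list count moved between 6 and 10 higher, and between 0 and 3 lower, over those fits. Without actb1 sponge 3 it was 10 higher and 3 lower, and without actb1 sponge 3 and 4 it was 8 higher and 3 lower. BHLHE41 and rorcb were each called in only 1 of the 8 fits, cry3a in 3, and the PER1 copies in 5 (ENSDARG00000056885) and 2 (ENSDARG00000012499). These 5 calls all ended without actb1 sponge 1, without kif5a sponge 2 and without kif5a sponge 3. BHLHE41 was called only without actb1 sponge 3, and rorcb only without kif5a sponge 1. Cry3a was also lost without actb1 sponge 4 or kif5a sponge 1, and PER1 (ENSDARG00000012499) without actb1 sponge 2, actb1 sponge 4 or kif5a sponge 1.

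Beyond these lists, a pair of genes chosen after their values were seen were higher in the actb1 line. DDB2, which binds UV-damaged DNA, stood at 28.3, 28.7, 30.4 and 30.8 CPM in actb1 libraries, against 11.7, 12.1, 14.7 and 16.5 CPM in kif5a libraries (1.1 ± 0.13, edgeR adjusted p = 0.0048; wild type 27.6 to 41.1 CPM). Cipcb, a relative of a CLOCK-interacting protein, differed by 0.59 ± 0.10 (edgeR adjusted p = 0.0277) and, with 1 library left out, was called only without actb1 sponge 3.

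Reported targets of miR-29 were called about as often as other genes. Of 137 members of the 5 target lists, 2 (1.46%) were called, both higher in the actb1 line, and the median log2 difference was -0.03. Over all 137 the differences were positive in 66 and negative in 71. With 1 library left out the count was 1 to 2 higher and 0 to 1 lower.

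LOXL3, an enzyme that cross-links collagen and elastin, was called in every one of the 8 fits that left out a library. Its copy ENSDARG00000039563 stood at 22.9, 19.5, 27.9 and 19.8 CPM in actb1 libraries, against 10.3, 8.91, 8.88 and 8.87 CPM in kif5a libraries (1.28 ± 0.14, edgeR adjusted p = 0.00407). Wild type held 10.1 to 17.4 CPM. The copy ENSDARG00000076306 differed by -0.97 ± 0.37 and was not called.

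LPL, the lipase that releases fatty acids from circulating triglycerides, stood at 102, 102, 96.9 and 66.3 CPM in actb1 libraries, against 57.9, 44.3, 35.3 and 31.8 CPM in kif5a libraries (ENSDARG00000087697; 1.12 ± 0.21, edgeR adjusted p = 0.0409). Wild type held 40.5 to 48.5 CPM. The call ended without any one of actb1 sponge 1, 2 or 3 or kif5a sponge 2, 3 or 4. LPL was thus called in 2 of the 8 fits.

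None of the 35 collagen genes was called in edgeR. Their median was -0.02, between -0.24 (without actb1 sponge 3) and 0.23 (without kif5a sponge 2) when 1 library was left out. An unadjusted p under 0.05 was found for 9 (25.7%), 2 higher and 7 lower. DESeq2 called 1 higher and 3 lower, limma-voom and limma-trend 0, and edgeR fitted to all 12 libraries 1 lower. COL10A1 had the largest difference (-4.90 ± 1.69, edgeR adjusted p = 0.24). Kif5a sponge 2 held 37.5 CPM of it, against 0.260 to 0.592 CPM in the other kif5a libraries. That library also held 111 CPM of COL1A1 (ENSDARG00000035809), against 10.8 to 24.4 CPM in the other kif5a libraries. COL12A1, a collagen of the fibril-associated class, missed the threshold (ENSDARG00000019601; -3.19 ± 0.67, edgeR adjusted p = 0.0664). It stood at 2.54, 3.77, 3.68 and 1.42 CPM in actb1 libraries, against 34.9, 33.6, 33.5 and 2.82 CPM in kif5a libraries. There kif5a sponge 4 lay apart from the other libraries of its line and within the range of the actb1 line. The other copy of COL12A1, ENSDARG00000078322, averaged 14.9 CPM in actb1 libraries and 13.2 CPM in kif5a libraries (0.17 ± 0.27, edgeR adjusted p = 0.791).

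The 13 genes of DNA methylation and demethylation had 12 negative differences and a median of -0.24 (-0.11 without actb1 sponge 4), and none was called in edgeR. Of these, 2 (15.4%) had an unadjusted p under 0.05, and DESeq2, limma-voom and limma-trend called 0. The smallest p belonged to dnmt3bb.2, a de novo methyltransferase, at 0.255 CPM in actb1 libraries and 0.679 CPM in kif5a libraries on average (-1.39 ± 0.32, edgeR adjusted p = 0.0931). Of 19 apoptosis genes none was called in edgeR, 2 (10.5%) had an unadjusted p under 0.05, and the median was -0.08; the other tools called 0. The list of 32 other matrix genes had a median of 0.25 (0.11 without actb1 sponge 3, 0.13 without kif5a sponge 3 or 4). That list had 1 call (3.12%), which is LOXL3, and also holds NASP, which is not a matrix gene and differed by -0.03. The 40 remaining reported targets had a median of 0.01 and 1 call (2.5%), which is LPL. The 23 iron genes, a list kept beside the targets, had a median of 0.13 and no call in edgeR, with 6 (26.1%) at an unadjusted p under 0.05, 1 called by DESeq2 and 0 by the limma tests.

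**Figure D3:**
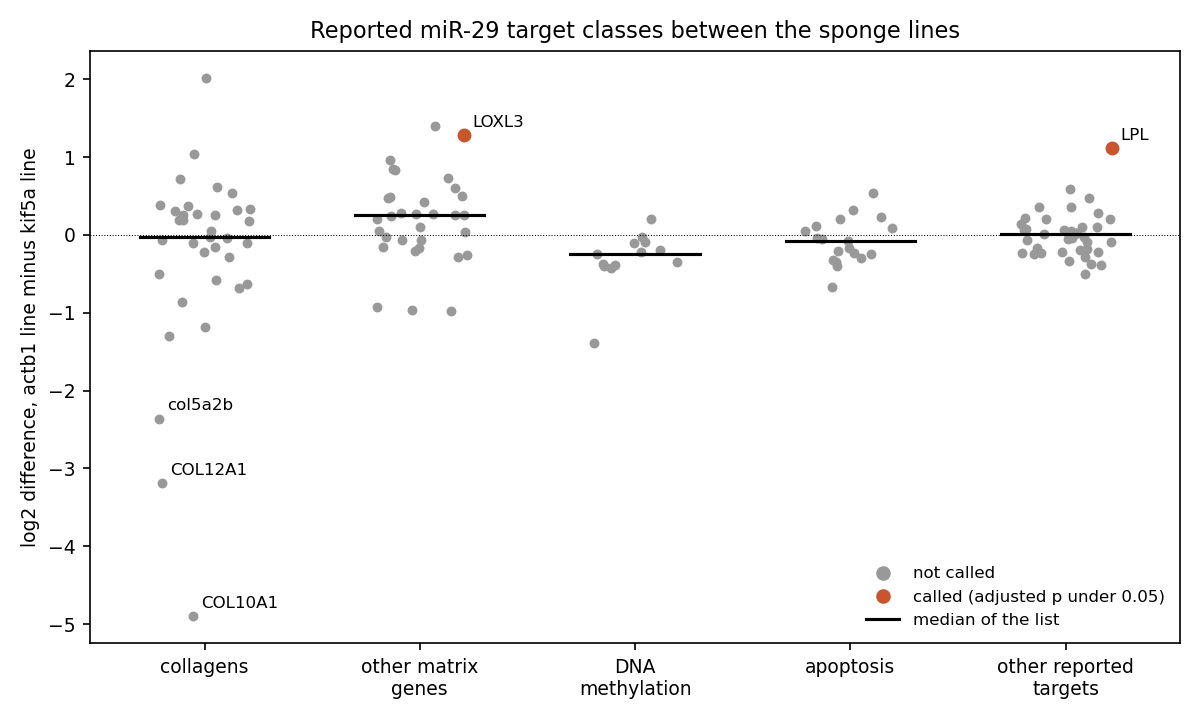
Log2 difference, actb1 line minus kif5a line, for the members of 5 classes of reported miR-29 targets, with the median of each class as a black line and the 2 called genes in orange. LOXL3 and LPL are the called points. The collagens of largest difference, COL10A1 (-4.90) and the COL12A1 copy ENSDARG00000019601 (-3.19), were not called.

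The gene of smallest p in either direction with a gene name was armc9, which encodes a protein of the base of cilia. It stood at 8.73, 8.20, 8.91 and 8.93 CPM in actb1 libraries, against 29.3, 35.1, 36.5 and 34.9 CPM in kif5a libraries (-1.96 ± 0.11, edgeR adjusted p = 8.99e-05). Wild type held 8.90 to 10.5 CPM, so the kif5a libraries stood apart from the libraries of both other groups. Armc9 was called in all 8 fits that left out a library. It was 1 of 27 genes on a list for cilia, of which no other was called.

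Of 18 nicotinic acetylcholine receptor subunits tested, 3 were called lower in the actb1 line and 0 higher, and 15 were not called. Over all tested genes 0.468% were called lower and 0.519% higher. In the family 5 differences were positive and 13 negative, with a median of -0.22. The family was looked up after its values were seen, so its count is a description. Chrna10a stood at 0.402, 0.311, 0.225 and 0.284 CPM in actb1 libraries, against 3.06, 5.01, 2.41 and 4.73 CPM in kif5a libraries (-3.63 ± 0.34, edgeR adjusted p = 0.00105). CHRNE, the epsilon subunit of the muscle receptor, differed by -1.74 ± 0.22 (edgeR adjusted p = 0.00598) and chrna11 by -1.23 ± 0.23 (edgeR adjusted p = 0.0451). With 1 library left out, chrna11 was called only without actb1 sponge 2 or 3. Wild-type libraries of chrna10a ran between 0.0947 and 4.47 CPM, a wide spread within that group.

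Other named genes were lower in the actb1 line as well. SLIT1, an axon guidance ligand, stood at 10.9, 12.8, 6.44 and 8.12 CPM in actb1 libraries, against 27.9, 22, 25.5 and 36.6 CPM in kif5a libraries (ENSDARG00000099446; -1.55 ± 0.24, edgeR adjusted p = 0.0167), and its call ended without actb1 sponge 4. CLSTN2, a calsyntenin of the synapse, differed by -1.44 ± 0.24 (ENSDARG00000060637; edgeR adjusted p = 0.0273), a call that held only without actb1 sponge 1 or kif5a sponge 4. OTOF, a calcium sensor of vesicle release, stood at 83.5, 89.0, 65.6 and 73.0 CPM in actb1 libraries, against 173, 186, 186 and 117 CPM in kif5a libraries (ENSDARG00000030832; -1.09 ± 0.17, edgeR adjusted p = 0.0162), a call that ended without actb1 sponge 4 or kif5a sponge 1, 2 or 3. RNF150, a ring finger protein, stood at 29.7, 32, 27.8 and 31.0 CPM in actb1 libraries, against 88.7, 60.1, 91.0 and 62.4 CPM in kif5a libraries (ENSDARG00000009524; -1.33 ± 0.16, edgeR adjusted p = 0.00438) and was called in all 8 fits that left out a library. On the neuron list none of 32 genes was called in edgeR, 3 (9.38%) had an unadjusted p under 0.05, the median was -0.10, and DESeq2 and the limma tests called 0. Of 18 markers of GABAergic neurons, which release the transmitter GABA, 13 had a negative difference, and the median was -0.23, between -0.36 (without actb1 sponge 4) and -0.09 (without kif5a sponge 4) with 1 library left out. None of these 18 was called in edgeR, 3 (16.7%) had an unadjusted p under 0.05, 1 higher and 2 lower, and DESeq2 called 2 lower and the limma tests 0. Their summed level was 2097 to 3209 CPM in actb1 libraries and 3371 to 3548 CPM in kif5a libraries, lowest in actb1 sponge 3.

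Among genes higher in the actb1 line, tuft1a, the tuftelin gene, stood at 106, 116, 126 and 133 CPM in actb1 libraries, against 42.0, 36.9, 50.3 and 43.1 CPM in kif5a libraries (1.48 ± 0.12, edgeR adjusted p = 0.000555), and wild-type libraries ran between 43.9 and 137 CPM. HSF2, a heat shock transcription factor, stood at 82.7, 91.3, 68.4 and 89.7 CPM in actb1 libraries, against 37.6, 41.9, 38.0 and 44.0 CPM in kif5a libraries (1.04 ± 0.12, edgeR adjusted p = 0.00366), with wild type between 73.1 and 101 CPM. AGA, a lysosomal enzyme that breaks down glycoproteins, stood at 34.4, 37.1, 42.0 and 35.7 CPM in actb1 libraries, against 6.89, 11.1, 11.6 and 14.4 CPM in kif5a libraries (1.76 ± 0.20, edgeR adjusted p = 0.00437). These 3 genes were called in all 8 fits that left out a library. HSF2 was the only one of 35 heat shock genes that was called, and the median of that list was 0.05.

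Several enzymes and carriers were higher as well. PRKAR2A, a regulatory subunit of protein kinase A, stood at 10.1, 10.6, 11 and 12.5 CPM in actb1 libraries, against 2.41, 3.52, 4.23 and 3.07 CPM in kif5a libraries (ENSDARG00000009477; 1.74 ± 0.19, edgeR adjusted p = 0.00304). Rca2.2, a gene of the family that regulates complement, differed by 2.25 ± 0.26 (edgeR adjusted p = 0.00438). CTPS1, a CTP synthase, differed by 0.91 ± 0.13 (ENSDARG00000098386; edgeR adjusted p = 0.0128), and tcn2, a carrier of vitamin B12, by 0.81 ± 0.10 (edgeR adjusted p = 0.00503). MT1X, a metallothionein that binds zinc and copper, stood at 169, 171, 212 and 208 CPM in actb1 libraries, against 84.2, 58.3, 109 and 95.4 CPM in kif5a libraries (1.13 ± 0.18, edgeR adjusted p = 0.022). Each of these 5 genes lay without overlap between the lines. Genes named for the size of their difference had to meet that condition, so for them it is no separate result. The call of CTPS1 ended without kif5a sponge 2, and that of MT1X without actb1 sponge 4 or kif5a sponge 1.

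Of 40 genes of the fasting response, 3 were called higher and 0 lower (7.5%), against 0.988% of all tested genes in either direction. With 1 library left out, 0 to 3 were called higher. The median was 0.24 (0.13 without actb1 sponge 3 and 0.12 without kif5a sponge 3). An unadjusted p under 0.05 was found for 12 higher and 1 lower (32.5%), against 14% of all tested genes. Of the 3 called genes, 2 are the PER1 copies, which the clock list also holds. The other is PDK2, a kinase that turns off pyruvate dehydrogenase. PDK2 stood at 6.99, 6.91, 11.6 and 20.3 CPM in actb1 libraries, against 0.943, 1.32, 2.05 and 2.98 CPM in kif5a libraries (ENSDARG00000059054; 2.64 ± 0.45, edgeR adjusted p = 0.0279), and, with 1 library left out, it was called only without actb1 sponge 1, actb1 sponge 2 or kif5a sponge 4.

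Mhc2d4b, tnfrsf1b and ftr90 were further named genes lower in the actb1 line. Mhc2d4b, an MHC class II gene, stood at 2.14, 1.59, 3.26 and 3.00 CPM in actb1 libraries, against 6.47, 9.99, 9.60 and 8.56 CPM in kif5a libraries (-1.79 ± 0.25, edgeR adjusted p = 0.0109). Tnfrsf1b, a receptor of tumour necrosis factor, differed by -2.13 ± 0.31 (edgeR adjusted p = 0.0135, a call that ended without actb1 sponge 1), and ftr90, of the finTRIM family, by -1.89 ± 0.25 (edgeR adjusted p = 0.00681). Genes of the MHC and finTRIM families have close paralogues, so their counts are uncertain. On the list of MHC class II and antigen presentation genes, which does not hold mhc2d4b, none of 26 was called in edgeR, 18 differences were positive and 8 negative, and the median was 0.08. An unadjusted p under 0.05 was found for 4 higher and 1 lower (19.2%), and DESeq2 called 2 higher and the limma tests 0.

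A set of genes was close to absent from one line. Of the called genes, 24 had 10 counts or fewer in all 4 actb1 libraries and 20 had 10 or fewer in all 4 kif5a libraries. At that level a library lies below 0.5 CPM, so such a gene was tested only because libraries outside that line were higher. The share of all tested genes this low in one line is not given here, so these counts are a description. Only 6 of the 24 and 4 of the 20 have a gene name. The called clock genes, by contrast, kept a measured level in every library of both lines.

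KYAT3, a kynurenine aminotransferase, had 2 counts over the actb1 libraries and 432 over the kif5a libraries (ENSDARG00000101791), a ratio of kif5a to actb1 counts per depth of 214 with a counting interval (95%, exact) of 59.0 to 1780. Si:dkey-169i5.4 had 1 count over the actb1 libraries and 597 over the kif5a libraries, a ratio of 593 (106 to 23400), and zgc:171679 had 6 counts over the actb1 libraries and 1234 over the kif5a libraries, a ratio of 204 (93.5 to 557). Si:dkey-238k10.1 had 0 counts over the actb1 libraries and 163 over the kif5a libraries, which is at least 53.9-fold lower in the actb1 line against a floor of 3 counts over the group. These are sums over 4 libraries and the intervals cover counting error only.

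In the other direction, casp23, a caspase of zebrafish, had 284 counts over the actb1 libraries and 4 over the kif5a libraries, a ratio of actb1 to kif5a of 71.5 (27.6 to 264). ENSDARG00000100935 had 1160 counts over the actb1 libraries and 13 over the kif5a libraries, a ratio of 89.9 (52.4 to 169). Si:dkey-242h9.3 had 121 counts over the actb1 libraries and 0 over the kif5a libraries, at least 40.6-fold higher in the actb1 line. In CPM, ENSDARG00000100935 stood at 10.1, 9.59, 8.29 and 12.8 in actb1 libraries, against 0.163, 0.209, 0 and 0.0627 in kif5a libraries.

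Such genes often varied between wild-type libraries too. Of the 44 genes near 0 in one line, 24 averaged at least 0.5 CPM in wild type, and in 18 of the 24 (75%) the highest wild-type library held at least 10 times the lowest. Over all tested genes that averaged at least 0.5 CPM in wild type, at any level above it, 463 of 19146 (2.42%) did. The shares were not matched for level, so they are a description. For KYAT3 the wild-type libraries ran between 0.114 and 7.49 CPM, while for zgc:171679 they ran between 11.7 and 21.4 CPM, all above the actb1 libraries.

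**Figure D4:**
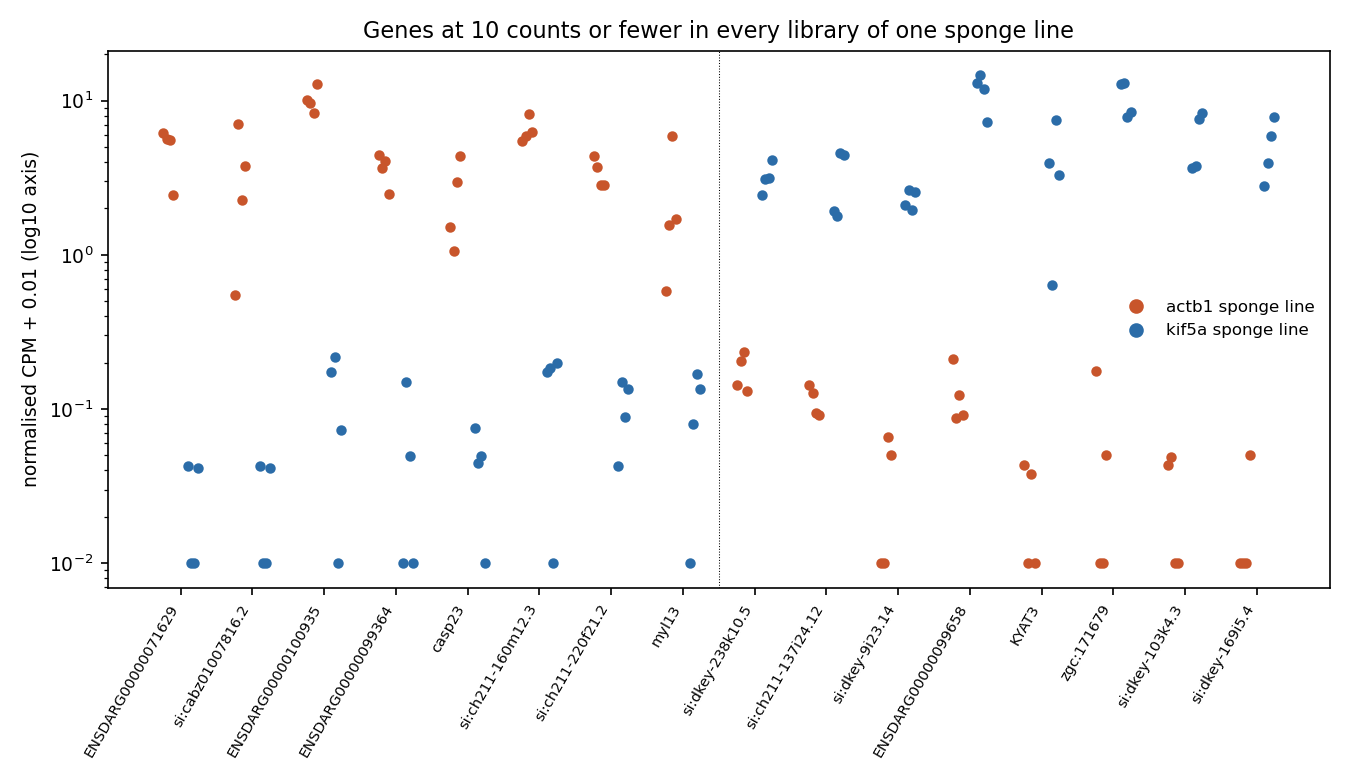
Normalised CPM plus 0.01, on a log10 axis, in 4 actb1 libraries (left of each pair) and 4 kif5a libraries (right) for 16 genes with 10 counts or fewer in every library of one line; the dotted line parts genes low in the kif5a line from genes low in the actb1 line. The 4 libraries of a line keep together in most genes, while KYAT3 spreads between 0.626 and 7.42 CPM in the kif5a line.

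Called genes lay near each other in the deposited gene order more often than other genes did. Of 194 called genes, 52 (26.8%) lay within 3 tested genes of another called gene, against 5.03% of all tested genes that lay so near a called gene, and 41 of the 52 had a called neighbour of the same direction. Neighbours in the table share a chromosome in 98.1% of the 10146 adjacent pairs for which both symbols have a chromosome in the gene table of the GRCz12tu assembly. A run of 15 consecutive tested genes held 10 called genes, all lower in the actb1 line, and a run of 6 held 5, also all lower. Among shorter runs, 1 of 7 genes was mixed, with 3 called higher and 1 lower. Si:dkey-169i5.4 and zgc:171679, named above, lay in the same run of 3, all lower, with si:dkey-103k4.3.

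The longest run contained si:ch73-389k6.1 and mhc2d4b. Si:ch73-389k6.1 averaged 0.304 CPM in actb1 libraries and 8.80 CPM in kif5a libraries (-4.80 ± 0.33, edgeR adjusted p = 0.000377), with wild type between 4.35 and 8.71 CPM. The remaining called genes of the run differed by -2.91 to -0.92. The run of 6 contained TTLL1, a tubulin glutamylase, at 16.7, 18.4, 23.2 and 22.3 CPM in actb1 libraries, against 33.5, 36.5, 42.9 and 34.6 CPM in kif5a libraries (-0.87 ± 0.14, edgeR adjusted p = 0.021; lost without actb1 sponge 1 or 2 or kif5a sponge 1, 2 or 3), beside si:dkey-238k10.1 and si:dkey-238k10.5. Both runs therefore joined moderate differences to large ones. Over the actb1 libraries, si:dkey-238k10.1 of the run of 6 had 0 counts, and si:ch73-389k6.1 of the longest run had 37.

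Markers of other cell types were compared as lists. All 31 microglia and macrophage genes had a positive difference, with a median of 0.57 (0.32 without actb1 sponge 4, and at most 0.71 with 1 library left out), and none was called in edgeR; 11 (35.5%) had an unadjusted p under 0.05, DESeq2 called 1 and the limma tests 0. Their summed level was 1652 to 3275 CPM in actb1 libraries and 1272 to 1610 CPM in kif5a libraries, highest in actb1 sponge 3 and 4. Csf1ra, a receptor on which microglia depend, had the smallest p of the list and differed by 0.84 ± 0.22 (edgeR adjusted p = 0.128). Wild-type libraries of csf1ra ran between 11.2 and 36.4 CPM, across levels of both lines. Its paralogue csf1rb differed by 0.12 ± 0.20 (edgeR adjusted p = 0.81). In bulk tissue, more cells of a type and more RNA per cell cannot be told apart.

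All 74 cytosolic ribosomal protein genes were positive, with a median of 0.41 (0.18 without actb1 sponge 3, and at most 0.54 with 1 library left out), and none was called in edgeR; 13 (17.6%) had an unadjusted p under 0.05, DESeq2 called 3 and the limma tests 0. Their summed level was 22389 to 46470 CPM in actb1 libraries and 21459 to 25118 CPM in kif5a libraries. Actb1 sponge 1 and 2 lay within the kif5a range, and actb1 sponge 3, which also had the low mitochondrial share, held the 46470. Of 64 nuclear genes of oxidative phosphorylation, 56 were positive, with a median of 0.17 (0.11 without actb1 sponge 4), and none was called in edgeR; 8 (12.5%) had an unadjusted p under 0.05 and the other tools called 0.

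A few muscle genes were called higher in the actb1 line, with a wide spread. Ckma, a muscle creatine kinase, stood at 3.71, 10.4, 27.6 and 10.8 CPM in actb1 libraries, against 0.748, 0.870, 1.70 and 2.38 CPM in kif5a libraries (3.20 ± 0.61, edgeR adjusted p = 0.0459) and was the only call among 25 genes of muscle and skin (4%), whose median was 1.12. With 1 library left out, ckma was called only without actb1 sponge 1. The list did not move as one: 16 differences were positive and 9 negative, down to -3.85, and 14 higher and 4 lower had an unadjusted p under 0.05. DESeq2 called 5 higher and the limma tests 0, and the median was 0.53 without actb1 sponge 2 and at most 1.33 with 1 library left out. The summed level was 416 to 722 CPM in actb1 libraries and 331 to 1607 CPM in kif5a libraries, so the sums overlapped. Outside that list, ldb3a, of the muscle Z-disc, differed by 2.63 ± 0.45 (edgeR adjusted p = 0.0286), cox7a1, a heart and muscle subunit of cytochrome oxidase, by 2.29 ± 0.37 (edgeR adjusted p = 0.023), and myl13, a myosin light chain, by 4.76 ± 0.89 (edgeR adjusted p = 0.0409). They were called in 1 (ldb3a), 2 (cox7a1) and 1 (myl13) of the 8 fits that left out a library. Photoreceptor genes varied within both lines: their summed level ran between 25.7 and 721 CPM in actb1 libraries and between 29.5 and 538 CPM in kif5a libraries, and none of 38 was called in edgeR or another tool, nor had any an unadjusted p under 0.05.

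None of 21 pituitary and hypothalamus genes, among them neuropeptide genes, was called in edgeR; 4 (19%) had an unadjusted p under 0.05, and DESeq2 called 3 and the limma tests 0. Of the 21 differences 14 were positive and 7 negative, down to -0.85. The median was 0.57, and 0.19 without actb1 sponge 3 and 0.87 without actb1 sponge 2. Gnrh3, the precursor of a gonadotropin-releasing hormone, stood at 7.23, 2.64, 9.39 and 6.50 CPM in actb1 libraries, against 2.02, 0.766, 0.513 and 2.41 CPM in kif5a libraries (2.16 ± 0.52, edgeR adjusted p = 0.108). Avp, the vasopressin gene, differed by 1.5 ± 0.38 (edgeR adjusted p = 0.119). Gnrh3 and avp were the only 2 of the 21 genes without overlap between the lines, and 10.4% of all tested genes did not overlap. The summed level of the list was 194 to 874 CPM in actb1 libraries and 181 to 280 CPM in kif5a libraries, highest in actb1 sponge 3 and 4.

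Epd, the gene of ependymin, a protein secreted by the meninges of fish, was chosen after its values were seen. It stood at 22329, 25633, 57815 and 31398 CPM in actb1 libraries, against 18302, 16840, 13471 and 15557 CPM in kif5a libraries (1.1 ± 0.32, edgeR adjusted p = 0.166). The lines did not overlap, yet actb1 sponge 3 held far more than the rest of its line, and wild type ran between 14481 and 25867 CPM. None of the 24 meningeal and fibroblast genes was called in edgeR, 14 differences were positive and 10 negative, down to -1.67, and the median was 0.08, between -0.04 (without kif5a sponge 4) and 0.37 (without kif5a sponge 2) with 1 library left out. An unadjusted p under 0.05 was found for 5 higher and 2 lower (29.2%); DESeq2 called 2 higher and 1 lower, the limma tests 0, and edgeR fitted to all 12 libraries 1 lower.

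**Figure D5:**
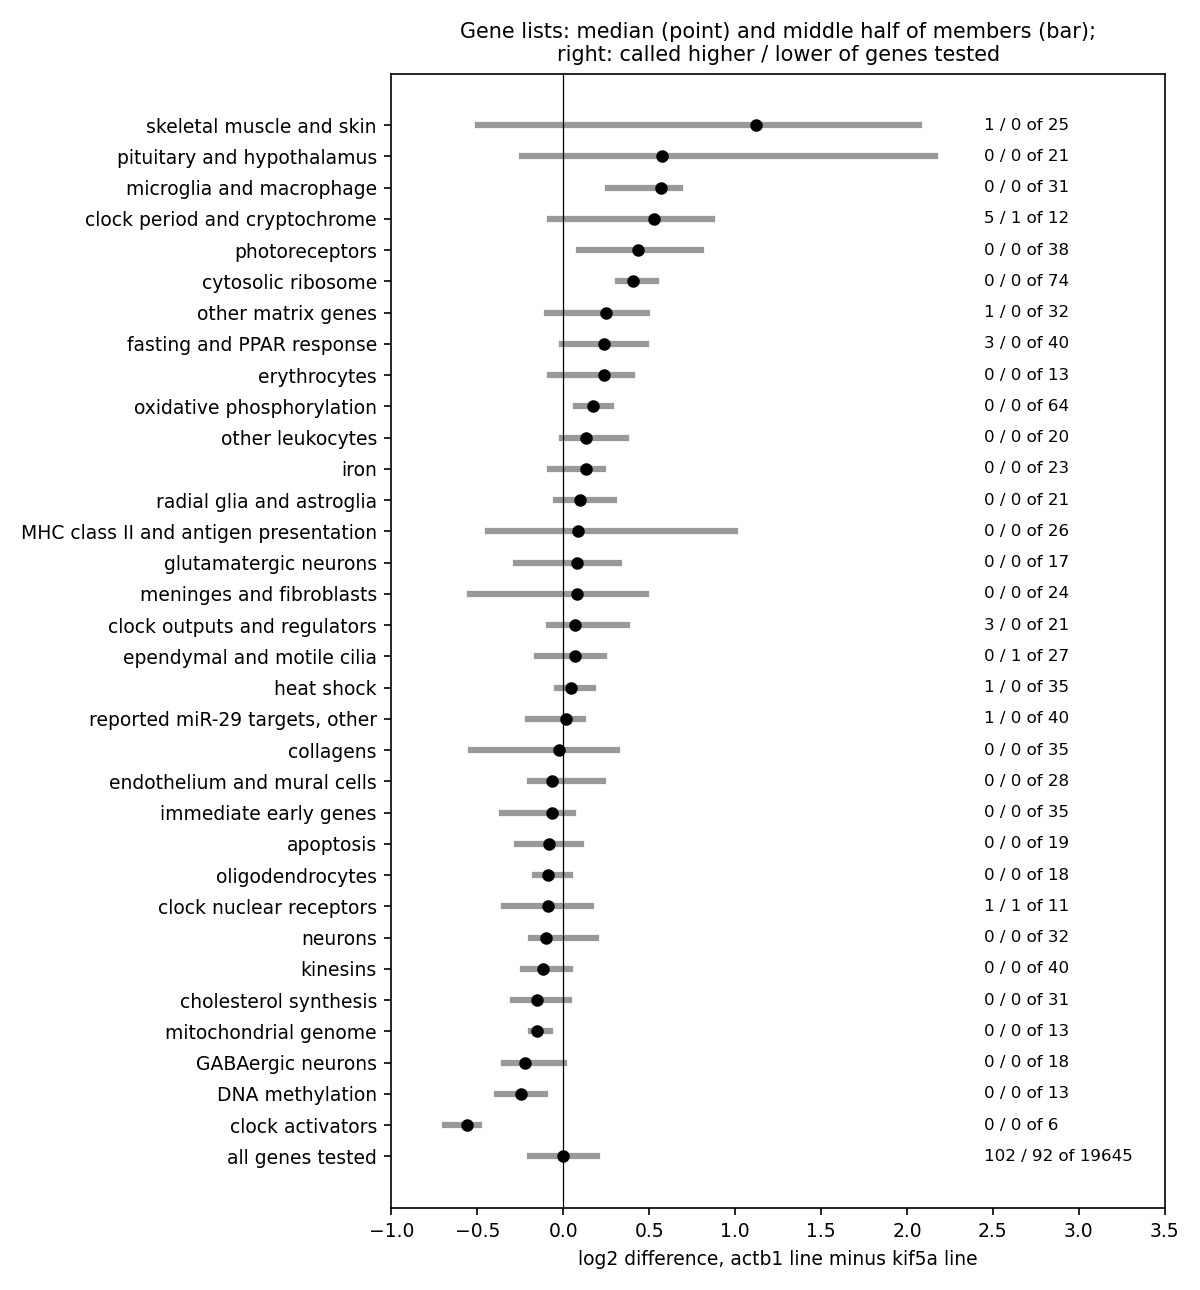
Median (point) and span between the quartiles (bar) of the log2 difference, actb1 line minus kif5a line, for each gene list, with all tested genes at the bottom and the numbers called higher and lower at right. The clock activators are the list of lowest median (-0.56) and muscle and skin that of highest median (1.12). The period and cryptochrome list has 5 calls higher, among them cry5 and cry-dash of the photolyase family, and 1 lower of 12.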

How the data were processed

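Raw gene counts of 12 libraries, deposited by the authors as whole numbers, were the only input; the RPKM values deposited with them were left aside. Per the labels' protocols, TruSeq RNA libraries (kit version 2, which does not mark strand) were made from total RNA, so overlapping antisense genes cannot be told apart. The submitters' processing notes name STAR 2.4.1d, featureCounts 1.4.6-p4, bcl2fastq 1.8.4 and build GRCz10; annotation and the treatment of shared reads are not given in the sources used here.

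Symbols came from a supplied table for 26269 of 32105 identifiers (81.8%); 1632 symbols stand for more than 1 identifier, and such genes carry theirs. Many symbols are those of human orthologues. Genes with more than 0.5 CPM in at least 4 of the 12 libraries were tested (19645 genes, 99.9% of counts). The 4 actb1 and 4 kif5a libraries entered edgeR 4.0.16 (R 4.3.3, TMM, quasi-likelihood test, Benjamini-Hochberg over all tested genes, threshold 0.05). The code was also run on simulated counts, drawn independently for each gene and library. Such counts hold no shifts shared by many genes of a library, and no result here rests on that run. Alternatives used DESeq2 1.42.0 and limma 3.58.1. Wild-type CPM come from a normalisation of all 12 libraries and are a description.

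Members and gene lists were chosen with earlier results of these data known. Named genes were the 15 largest differences a direction (mean of 2 CPM or more, gene name, no overlap), up to 4 called members a list (else the 2 of smallest p), driver and miR-29 genes, the 5 smallest p a direction, and up to 8 a direction of called genes with 10 counts or fewer in all libraries of a line; called genes of 20 CPM or more were added after values were seen. Intervals and floors cover counting error only.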

Additional observations from a re-analysis of the deposited data

Results flagged for a closer look

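Groups of 4 libraries, 1 per line, were examined for the 140 named genes and for total counts, genes detected and mitochondrial share. A library was listed when its gap to the nearest of the others, as a share of the group's range, exceeded Dixon's critical value. This was met in 17 of 286 groups (5.94%), where normal, independent values would give about 1 in 20. The named genes were chosen partly by their values, so the share is a description. Other genes were not examined, among them COL10A1 and COL1A1 (ENSDARG00000035809), for which kif5a sponge 2 stood apart. Among called genes, LPL stood at 66.3 CPM in actb1 sponge 4, against 96.9 to 102 CPM in the other actb1 libraries. LOXL3 (ENSDARG00000039563) stood at 10.3 CPM in kif5a sponge 1, against 8.87 to 8.91 CPM in the other kif5a libraries. Cry5 stood at 3.64 CPM in kif5a sponge 1, against 4.58 to 4.62 CPM in the others. OTUD6B stood at 16.3 CPM in kif5a sponge 1, against 18.5 to 18.8 CPM. ENSDARG00000071629 stood at 2.44 CPM in actb1 sponge 4, against 5.54 to 6.16 CPM. Si:dkey-169i5.4 was at 0.0406 CPM in actb1 sponge 4 and at 0 in the other actb1 libraries, and si:ch211-160m12.3 was at 0 in kif5a sponge 3, against 0.163 to 0.188 CPM; both differences are of a few counts.

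Among genes not called, COL12A1 (ENSDARG00000019601) stood at 2.82 CPM in kif5a sponge 4, against 33.5 to 34.9 CPM in the other kif5a libraries. In kif5a sponge 3, hephl1a stood at 19.5 CPM, against 30.5 to 31.3 CPM, and nt5c2l1 at 7.86 CPM, against 11.5 to 12.2 CPM. Mhc1zea stood at 17.5 CPM in kif5a sponge 1, against 7.74 to 9.19 CPM. Actb1 sponge 3 was set apart for 3 genes: GAD1 (ENSDARG00000027419) at 528 CPM, against 687 to 705 CPM; plp1b at 1040 CPM, against 1490 to 1570 CPM; and twist1b at 6.94 CPM, against 3.30 to 3.85 CPM. Nefla stood at 315 CPM in actb1 sponge 4, against 267 to 269 CPM. In actb1 sponge 2, FOSB stood at 1.01 CPM, against 0.646 to 0.690 CPM, and ACTA1 (ENSDARG00000036371) at 0.117 CPM, against 0.197 to 0.203 CPM.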

How the results depend on the processing

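No called gene changed sign under any alternative in which it was tested. DESeq2 called 459 genes higher and 406 lower, against 102 and 92 in the edgeR test, and all 194 were among them. With 1 library left out, edgeR called 51 to 101 higher and 52 to 93 lower, and 81 of the 194 were called in every such fit. All 12 libraries in 1 model gave 126 higher and 106 lower and kept 154 of the 194. The other settings (limma-voom, limma-trend, RLE size factors, the mitochondrial genome left out, no filter, a filter on the 8 libraries, and more than 2 CPM) gave 74 to 109 higher and 63 to 97 lower. Without actb1 sponge 3 and 4, an alternative added after seeing the data, there were 97 higher and 93 lower.

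Reversed signs were near 0 and uncalled: actb2 -0.01 and kif5ab 0.13 without actb1 sponge 3 and 4; MT-ND1 0.1 and MT-ND3 0.13 without actb1 sponge 3 (lowest with a library left out -0.58 and -0.56); actb1 0.05 without actb1 sponge 2 (lowest -0.15); and kif5ab 0.03, 0.06, 0.02 and 0.01 in 4 fits that left out a library (lowest -0.07). List medians near 0 also changed sign with 1 library left out, among them collagens (-0.24 to 0.23), cholesterol synthesis (-0.34 to 0.14), the mitochondrial genome (-0.41 to 0.21), cilia (-0.13 to 0.19), neurons (-0.13 to 0.02), all clock genes (-0.02 to 0.09) and the target lists together (-0.1 to 0.02). The mitochondrial share was 1.27 percentage points higher in the actb1 line without actb1 sponge 3, and -2.64 without actb1 sponge 4. The cause was not tested for any of these. No paired analysis was possible because the labels give no replicate numbers; those used follow the order of the samples and pair nothing. Depth bears on genes of low level: with more than 2 CPM asked for in 4 libraries, 146 of the 194 called genes were still tested and 137 of them were called.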
